A study of Mus musculus with 4 samples.

Results

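The 10 genes described here encode the transcription factor NRF2, its inhibitor KEAP1, the enzymes that make and recycle glutathione, a thioredoxin reductase, and 3 further enzymes of the oxidative stress response. They were chosen by symbol: Nfe2l2, Keap1, Gclc, Gclm, Gss, Gsr, Txnrd1, Hmox1, Nqo1 and Srxn1. All 10 were found among the 55573 genes of the deposited table, and 9 of them were among the 15472 genes with enough reads to be tested. Srxn1 was too scarce for the test.

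RNA was sequenced from mouse medulloblastoma cells called SmoWT, a tumour model of the Sonic Hedgehog subtype that arises from granule neuron progenitors of the cerebellum. The cells carry Ptch1+/-, Trp53-/- on a C57BL/6 background, are derived from spontaneous tumours and grow as neurospheres, and both groups share these features. The DMSO group (2 libraries) received solvent for 24 h, and the GDC0449 group (2 libraries) received 0.1 µM of GDC0449, also named vismodegib, an inhibitor of Smoothened, for 24 h. The labels do not say whether the libraries of a group came from separate cultures or whether the cells are 1 line or several. The spread behind each p-value is thus that of the deposited libraries, in the main test mostly pooled over all tested genes. It could be technical only.

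In unstressed cells KEAP1 holds NRF2 and presents it to a CUL3 ubiquitin ligase, and NRF2 is degraded. Oxidants and electrophiles modify cysteines of KEAP1, NRF2 then accumulates mainly as a protein, and with small MAF proteins it binds antioxidant response elements near genes such as Gclm, Txnrd1, Nqo1, Srxn1 and Hmox1. BACH1, a repressor that binds haem, occupies many of the same elements and is known above all for holding Hmox1 down. Glutathione is built from cysteine, glutamate and glycine, and the supply of cysteine usually limits the rate.

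The promoter windows below, from RefSeq on GRCm38.p6, are shown because they hold the core letters of the antioxidant response element, the sequence through which NRF2 acts on these genes. A window runs from 250 bases before to 50 bases after a transcription start, and 7 of the 10 genes had at least 1 window, 9 windows in all. Gclc, Gsr and Hmox1 are named only. The letters searched were TGACNNNGC on both strands. They were present in 4 of the 9 windows, which belong to 4 genes, and in 12.4% of all 32851 windows in the table. Capitals mark the match, and each sequence is read along the strand of its gene. The window of Nqo1 held no match, which says only that these letters are not in this window.
Nfe2l2 (chr2:75704875-75704913, minus strand): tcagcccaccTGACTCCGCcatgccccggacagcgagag
Gclm (chr3:122245403-122245451, plus strand): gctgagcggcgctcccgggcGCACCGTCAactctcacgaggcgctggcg
Txnrd1 (chr10:82859094-82859142, plus strand): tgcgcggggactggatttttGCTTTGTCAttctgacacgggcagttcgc
Srxn1 (chr2:152105532-152105573, plus strand): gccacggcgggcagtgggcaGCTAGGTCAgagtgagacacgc

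These matches lay 240, 134 and 92 bases before the start of Nfe2l2, Gclm and Txnrd1, and 28 bases after the start of Srxn1. Txnrd1 has 3 windows, and the match is in the window of an internal start. The Srxn1 window also held 2 matches to the AP-1 letters TGANTCA, which 7.81% of all windows contain; the 2 motifs can share letters. The only other motifs searched, TTGCATCA of CEBP-ATF dimers and GACCACCCA of GLI factors, had no match in the members' windows. A match describes letters in a reference sequence and does not show binding in these cells.

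The libraries held 16329721 to 20790030 reads in genes. Gli1, the transcript that reports Hedgehog activity, stood at 281 and 263 CPM (reads of a gene scaled to library size) in DMSO and at 38.8 and 32.7 CPM in GDC0449, a fall of 7.61-fold. Of the 7 granule progenitor markers, Barhl1 was nearly absent, at 4 to 10 reads a library, and the other 6 were tested. Atoh1 (1.76-fold) and Meis1 (1.95-fold) were called higher and none lower, with a median log2 fold change of 0.31. The summed level, 2155 to 2201 CPM in DMSO and 1949 to 2067 CPM in GDC0449, has Mycn as its largest part, which was at 1335 and 1283 CPM in DMSO and at 885 and 913 CPM in GDC0449 and was not called. Calls rest on edgeR's quasi-likelihood test: a called gene differed by more than 1.5-fold and had a p, adjusted by Benjamini and Hochberg's method over all tested genes, of less than 0.05. By the adjusted p alone 4 of the 6 tested progenitor markers were higher and 2 lower. Zic1 (log2 fold change 0.24) and Zic2 (0.38) were then also higher, and Mycn (-0.54) and Pax6 (-0.19) were lower. Of all tested genes 8.68% were called higher and 3.85% lower, and by the adjusted p alone 18.1% each way. In bulk RNA, fewer cells that express a gene and less RNA per cell cannot be told apart.

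Of the 9 tested genes, 1 rose, 1 fell and 7 were not called. Nqo1 was the riser and Hmox1 the one that fell. Over all tested genes 8.68% were called higher and 3.85% lower, together 12.5%. With 1 call in each direction, the share of members called is too small a count to be read apart from that background. The median log2 fold change of the 9 genes was -0.08, against 0.01 over all genes.

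**Figure D1:**
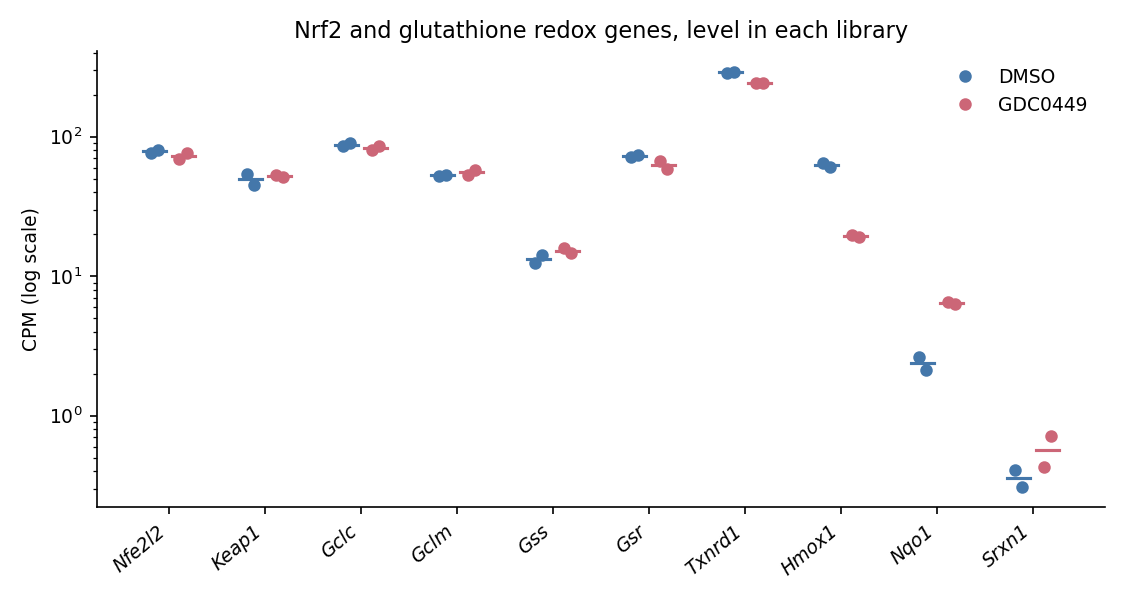
Level of each of the 10 genes in each library, in CPM on a log scale; points are libraries (blue DMSO, red GDC0449) and short lines are group means. The GDC0449 libraries sit apart from DMSO by a wide gap for Hmox1, below, and Nqo1, above, while the points of Nfe2l2, Keap1, Gclc, Gclm and Gss lie close together.

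The regulators themselves were not called. Nfe2l2 (ENSMUSG00000015839, chromosome 2, 75675513 to 75704641), which encodes NRF2, was at 76.9 and 80 CPM in DMSO and at 69.4 and 75.7 CPM in GDC0449. The treated libraries were slightly lower and did not overlap the controls. The log2 fold change was -0.11 with a standard error of 0.07 (adjusted p = 0.238), and its 95% interval of -0.26 to 0.03 lies inside the 1.5-fold threshold. Because NRF2 is controlled mainly as a protein, this transcript level is not a measure of NRF2 activity. Keap1 (ENSMUSG00000003308, chromosome 9, 21229730 to 21239361), the adaptor that marks NRF2 for degradation, was at 53.7 and 45.2 CPM in DMSO and at 53.3 and 51 CPM in GDC0449. Its groups overlapped, with a log2 fold change of 0.07 and an interval of -0.09 to 0.24. An antisense-strand gene, Gm16754, shares 10.9% of the exonic bases of Keap1, and the strand setting of the counting is not given. The assignment of reads from these bases is therefore uncertain, and some may be missing from the Keap1 count. Reads set aside as ambiguous between genes were 4.73% to 4.91% per library and were left out.

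The 4 glutathione enzymes also lay inside the 1.5-fold threshold. Gclc (ENSMUSG00000032350, chromosome 9, 77754535 to 77794485) encodes the catalytic subunit of glutamate-cysteine ligase, the rate-limiting enzyme of glutathione synthesis, and was at 85.8 and 89.3 CPM in DMSO and 80.4 and 85.1 CPM in GDC0449. Gclm (ENSMUSG00000028124, chromosome 3, 122245557 to 122270732), the modifier subunit, was at 52.6 and 53.5 CPM in DMSO and 53.1 and 57.8 CPM in GDC0449. The log2 fold changes were -0.08 for Gclc (interval -0.22 to 0.06) and 0.06 for Gclm (interval -0.09 to 0.22), and the groups overlapped for Gclm alone of the pair.

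Gss (ENSMUSG00000027610, chromosome 2, 155563181 to 155592810), glutathione synthetase, was at 12.4 and 14.1 CPM in DMSO and 15.8 and 14.6 CPM in GDC0449. The treated libraries were a little higher, with a log2 fold change of 0.21, an interval of -0.04 to 0.45 and an adjusted p of 0.195. Exons of Acss2 and of 2 antisense transcripts on the opposite strand share 15.4% of its exonic bases. Gsr (ENSMUSG00000031584, chromosome 8, 33652523 to 33698163), glutathione reductase, which returns oxidised glutathione to its reduced form with NADPH, was at 71.5 and 74.3 CPM in DMSO and at 66.7 and 58.9 CPM in GDC0449. Both treated libraries were below both controls. Its log2 fold change of -0.21 (interval -0.36 to -0.06) passed the adjusted p at 0.0217 but not the fold threshold.

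Txnrd1 (ENSMUSG00000020250, chromosome 10, 82833951 to 82897712), the cytosolic selenoprotein that reduces thioredoxin, was at 284 and 293 CPM in DMSO and at 242 and 241 CPM in GDC0449. The libraries of each group lay close to each other and the groups were well separated. The log2 fold change was -0.25 with a standard error of 0.06 and an adjusted p of 6.26e-04, again short of 1.5-fold. By the adjusted p alone 3 of the 9 genes were lower (Gsr, Txnrd1, Hmox1) and 1 was higher. Over all genes 18.1% were lower and 18.1% higher by the same rule. Gsr did not pass it with DESeq2 (adjusted p = 0.084), and Txnrd1 did not with limma on log2(FPKM + 1) (adjusted p = 0.0969).

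Hmox1 (ENSMUSG00000005413, chromosome 8, 75093621 to 75100589) encodes haem oxygenase 1, the inducible enzyme that splits haem into biliverdin, iron and carbon monoxide. It was at 64.2 and 60.2 CPM in DMSO and at 19.8 and 19 CPM in GDC0449. The libraries of a group nearly coincided and the treated level was under every control level by a wide margin. The fall was 3.21-fold, with a log2 fold change of -1.68, a standard error of 0.09, an interval of -1.86 to -1.51 and an edgeR adjusted p of 7.20e-23. It was lower in both treated libraries and was called in all 14 refits of the data, with log2 fold changes from -1.73 to -1.54.

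Hmox1 is also abundant in macrophages, and the levels of their markers are given here. Of 12 markers of microglia and macrophages 4 were tested, 2 were called lower and none higher. Over all tested genes 3.85% were lower and 8.68% higher, and so short a list is not read apart from that. The 2 called were Tyrobp, with 16 and 17 reads in DMSO and 3 and 6 in GDC0449, and Lyz2, with 58 and 67 reads in DMSO and 27 and 39 in GDC0449. Csf1r, at 10 and 9 reads in DMSO and 8 and 5 in GDC0449, was not called (log2 fold change -0.77). Cd68, the marker of this list with the most reads, had 86 and 83 reads in DMSO and 122 and 109 in GDC0449, with a log2 fold change of 0.21 that was not called. The 12 summed to 9.72 and 12.9 CPM in DMSO and to 8.82 and 8.62 CPM in GDC0449, and Aif1, Cx3cr1, Itgam and P2ry12 had 0 to 3 reads in each library. The part of such cells in the fall of Hmox1 was not tested. Of 5 red blood cell markers, whose cells are rich in haem, the sum was 1.07 and 1.49 CPM in DMSO and 1.23 and 1.71 CPM in GDC0449.

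Nqo1 (ENSMUSG00000003849, chromosome 8, 107388225 to 107403206) encodes a quinone reductase that uses NADH or NADPH and is among the most used readouts of NRF2. It had 52 and 34 reads in DMSO and 137 and 133 reads in GDC0449, which is 2.65 and 2.11 CPM against 6.5 and 6.3 CPM. Both treated libraries were more than 2-fold above either control. The rise was 2.66-fold, with a log2 fold change of 1.41, a standard error of 0.21, an interval of 0.98 to 1.84 and an edgeR adjusted p of 3.35e-07. It was called in all 14 refits, with the largest adjusted p at 0.0394 and log2 fold changes from 0.90, on log2(FPKM + 1), to 1.59. Its depth of 34 to 137 reads gives it the widest interval of the 9.

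Astroglia are a known site of Nqo1 in brain. Of 9 astrocyte markers 7 were tested, 3 were called higher (Slc1a2, Sparcl1 and Aldoc) and none lower. The shares over all tested genes were 8.68% higher and 3.85% lower. Together the 9 summed to 216 and 231 CPM in DMSO and 343 and 337 CPM in GDC0449. Most of the rise of the sum came from Slc1a2, at 72.6 and 83.5 CPM in DMSO and 178 and 176 CPM in GDC0449. Slc1a3 was as large a part in DMSO, at 72.2 and 78.5 CPM, and was at 72.8 and 70.2 CPM in GDC0449. The other 4 tested markers were not called, with log2 fold changes of -0.60 for S100b, -0.22 for Gja1, -0.07 for Slc1a3 and 0.69 for Gfap. Of these, only Gja1 passed edgeR's adjusted p (0.0319). Aqp4 and Aldh1l1 had 0 reads in every library. The part of astroglial cells or of astroglial genes in the rise of Nqo1 was not tested.

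Srxn1 (ENSMUSG00000032802, chromosome 2, 152105516 to 152111376), sulfiredoxin, which repairs overoxidised peroxiredoxins, had 8 and 5 reads in DMSO and 9 and 15 in GDC0449. These counts are a few times the 3 reads taken as the detection floor, which is 0.144 to 0.184 CPM. With no filter on low counts its log2 fold change was 0.63 with a standard error of 0.44 and an adjusted p of 0.498. The authors' FPKM values pointed the other way, at 0.206 and 0.227 in DMSO and 0.186 and 0.185 in GDC0449, so the depth does not give a direction.

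**Figure D2:**
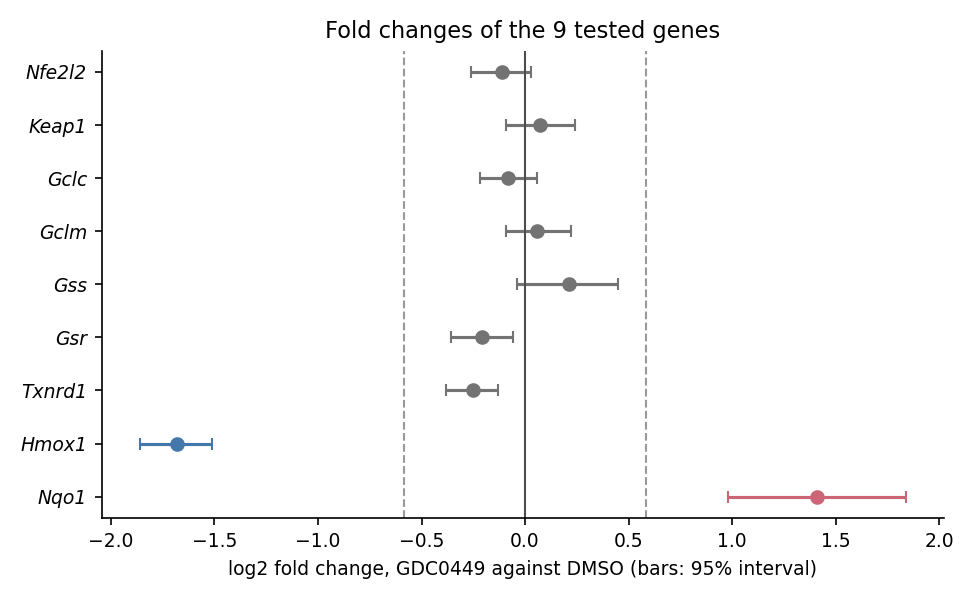
Log2 fold change of GDC0449 against DMSO for the 9 tested genes, with 95% intervals from the edgeR fit; dashed lines mark 1.5-fold, and blue and red mark genes called lower and higher. Hmox1 lies at -1.68 and Nqo1 at 1.41, and the intervals of the other 7 genes lie between the dashed lines.

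Per length, on the authors' FPKM scale, the order in DMSO was Txnrd1 at 64.4, Hmox1 at 26.5, Nfe2l2 at 21.9, Gsr at 17.5, Gclc at 15.7, Keap1 at 14.5, Gclm at 7.24, Gss at 6.55, Nqo1 at 0.926 and Srxn1 at 0.217 (means, n = 2). Of neighbours in this order, Gclm and Gss overlapped between libraries, and the gap from Gclc to Keap1 was as narrow, with 15.4 as the lower Gclc value and 15.3 as the higher Keap1 value. In GDC0449 Hmox1 moved from rank 2 to rank 6, at 8.42 FPKM, and Keap1 from rank 6 to rank 3, at 15.3 FPKM. There the neighbours Keap1 and Gsr overlapped, as did Gsr and Gclc, and Gclm and Gss. Nqo1 kept rank 9, at 2.59 FPKM. Counts per kilobase of annotated exon gave another order in the middle, since Gsr, at 26.5 CPM per kilobase in DMSO, and Gclc, at 23.2, then stood above Nfe2l2 at 20.7. Txnrd1 was at 40.7 and Nqo1 at 1.53 CPM per kilobase in DMSO, a narrower distance than on the FPKM scale.

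Beyond the 10 genes, 8 lists of redox genes gave 95 tested genes, of which 9 rose, 7 fell and 79 were not called, with a median log2 fold change of 0.09. The shares over all tested genes were 8.68% higher and 3.85% lower, so the count of rises is near that background. Without either DMSO library, 4 genes were called higher in place of 9. In the 4 fits that each left out 1 library, 7 to 8 genes were called lower.

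**Figure D3:**
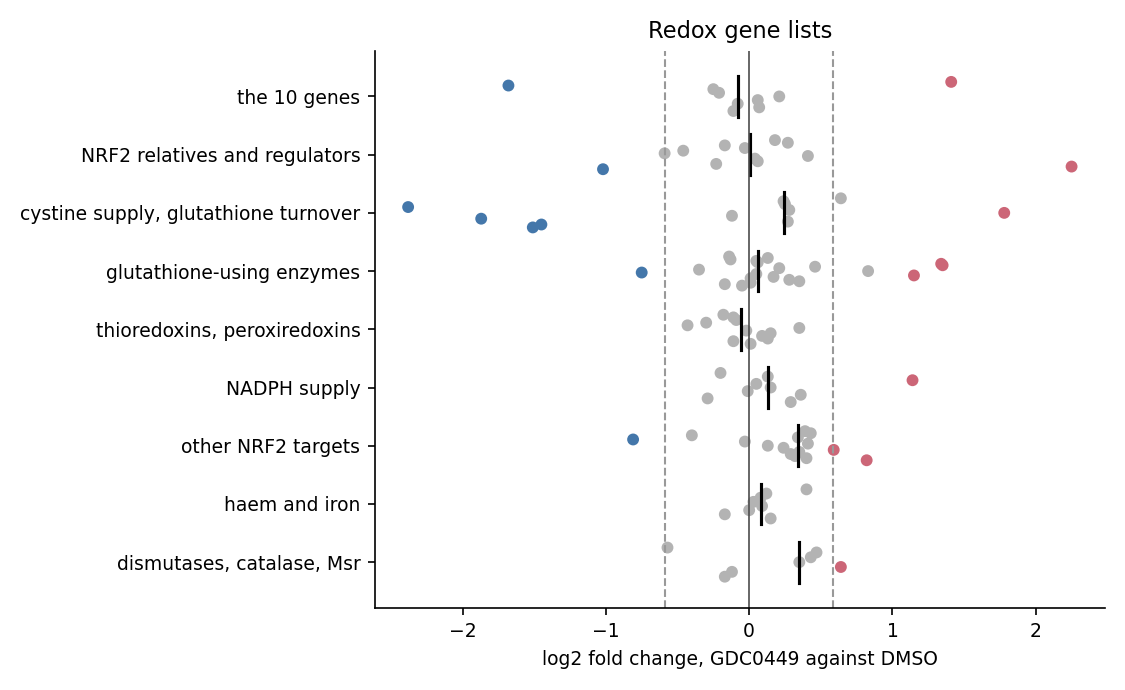
Log2 fold change of each tested gene in the member list and in the 8 further lists; grey points were not called, blue were lower, red were higher, black bars are list medians, and dashed lines mark 1.5-fold. Outside the member list, the 4 strongest falls are in the list of cystine supply and glutathione turnover, with the lowest gene, Chac1, at -2.38, while no gene of the thioredoxin or haem lists is coloured.

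The largest falls among these 95 genes were in the list of cysteine supply and glutathione turnover. Of 11 tested genes of this list 4 fell, where 3.85% of all genes did, and 1 rose, where 8.68% did. The median, 0.24, was positive, opposite in sign to most of the calls. This list was chosen with earlier results of these data known, so these shares describe it and do not test it. Slc7a11, the cystine transporter of system xc-, was at 67.3 and 72.7 CPM in DMSO and at 26 and 23.2 CPM in GDC0449. Its partner subunit Slc3a2 was at 492 and 454 CPM and fell to 171 and 175 CPM. Both therefore fell by similar factors, 2.85-fold and 2.73-fold (edgeR adjusted p = 1.72e-21 and 1.50e-26). Slc3a2 also pairs with other amino acid transporters.

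Cth, cystathionine gamma-lyase, which makes cysteine from methionine, fell 3.66-fold, from 66.6 ± 0.269 to 18.2 ± 0.890 CPM (SD, n = 2; adjusted p = 7.22e-25). Chac1, a gamma-glutamylcyclotransferase that breaks glutathione down, fell 5.22-fold, from 66.3 ± 2.78 to 12.7 ± 1.02 CPM (adjusted p = 5.15e-28). Thus Chac1, of glutathione breakdown, and Slc7a11, Slc3a2 and Cth, of cysteine supply, were lower. The synthesis enzymes Gclc, Gclm and Gss were not called. Ggt5, which rose, had 3 to 16 reads a library. It was not called with no filter, with DESeq2 or on log2(FPKM + 1). Nor was it called without DMSO replicate 1, DMSO replicate 2 or GDC0449 replicate 1. The other tested genes of the list were not called. Their log2 fold changes were 0.64 for Oplah, 0.28 for Ggt7, 0.27 for Slc1a1, 0.25 for Chac2, 0.24 for Ggct and -0.12 for Cbs. Of these, only Ggt7 passed edgeR's adjusted p (0.00148). Slc7a11, Ggt5 and these uncalled genes were picked out after their values were seen.

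**Figure D4:**
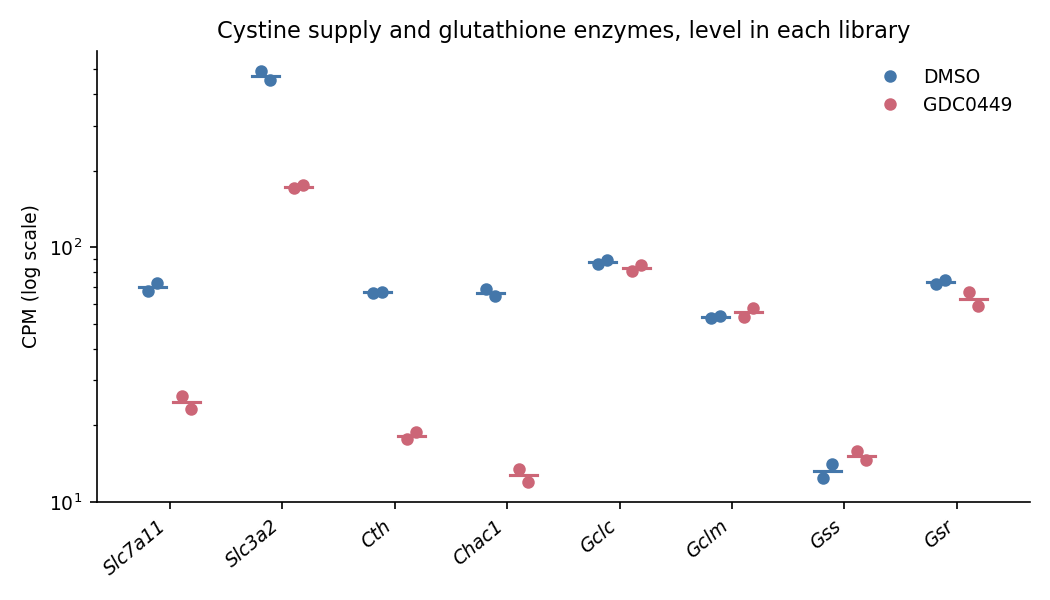
CPM on a log scale in each library for the 4 genes called lower in the list of cystine supply and glutathione turnover (left) and 4 glutathione enzymes (right). Points are libraries, short lines group means. The left 4 genes are lower in both GDC0449 libraries by 2.73-fold to 5.22-fold, and the right 4 differ by 1.16-fold or less.

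Slc7a11 and Chac1 were the only genes of the 92 in the 8 lists with a promoter window that held the letters TTGCATCA, a form of the composite element bound by CEBP-ATF dimers such as those with ATF4 or CHOP. Their sequences are printed for that reason; 0.895% of all windows held these letters. Capitals mark 1 match in each, 193 bases before the start of Chac1 and 47 bases before that of Slc7a11. The Slc7a11 window holds a further match on the opposite strand, 66 bases before the start. That match lies within the printed stretch, in small letters.
Chac1 (chr2:119351029-119351076, plus strand): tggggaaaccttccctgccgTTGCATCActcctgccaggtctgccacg
Slc7a11 (chr3:50443633-50443680, minus strand): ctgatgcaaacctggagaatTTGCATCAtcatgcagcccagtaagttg

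Side by side with these, 5 stress genes of the ATF4 circuit fell as well: Atf4 itself 2.05-fold, Asns 2.15-fold, Ddit3 3.13-fold, Sesn2 3.61-fold and Trib3 8.53-fold. Whether ATF4 had a part in the lower level of Hmox1, Slc7a11, Cth or Chac1 was not tested.

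Among relatives and regulators of NRF2, 1 of 12 tested genes rose and 1 fell, with a median of 0.01. Nfe2l1, which encodes NRF1, a related factor of the endoplasmic reticulum that drives proteasome genes and binds antioxidant response elements, was at 424 and 414 CPM in DMSO and at 204 and 210 CPM in GDC0449. It fell 2.02-fold (log2 fold change -1.02, standard error 0.06, adjusted p = 1.58e-20). Nfe2l3 was called higher at 2 to 26 reads a library. It lost its call without either DMSO library, with no filter and on log2(FPKM + 1). Bach1, the repressor of Hmox1, was at 56.3 and 59.7 CPM in DMSO and 60.3 and 58.9 CPM in GDC0449, with a log2 fold change of 0.04 and an interval of -0.11 to 0.19. Of the KEAP1 ligase partner Cul3 and the NRF2 partner Mafg, neither was called, at -0.23 and -0.46. Both passed edgeR's adjusted p (0.00164 and 3.45e-07) but not the fold threshold. Bach1, Cul3 and Mafg were picked out after their values were seen, for their roles.

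Of 21 tested enzymes that use glutathione 3 rose and 1 fell, with a median of 0.06. Beside 8.68% and 3.85% over all genes, counts this small are not read as a result about the list. Mgst3, a microsomal glutathione transferase and peroxidase, was at 27.4 and 22 CPM in DMSO and at 65.5 and 61.2 CPM in GDC0449, a rise of 2.55-fold (adjusted p = 1.14e-18). Glrx, glutaredoxin, which removes glutathione from protein cysteines, rose 2.53-fold, from 4.43 ± 0.289 to 11.2 ± 0.661 CPM (adjusted p = 1.81e-09). Gsto1, an omega-class transferase, fell 1.69-fold, from 55.1 ± 0.867 to 32.7 ± 0.575 CPM (adjusted p = 5.22e-11). The remaining riser, Gstm7, had 13 to 38 reads a library, belongs to a family of close copies and was picked out after its values were seen. It was not called without DMSO replicate 1, DMSO replicate 2 or GDC0449 replicate 1. With no filter, with DESeq2 and on log2(FPKM + 1), 2 genes of this list were called higher in place of 3. Gpx7, Gsta1 and Gsta2 had 0 reads in all 4 libraries.

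None of the 12 thioredoxin and peroxiredoxin genes was called with edgeR's fold threshold, and by adjusted p alone 1 was higher and 2 lower. Prdx3, the mitochondrial peroxiredoxin and the gene with the smallest p in the list, was at 103 and 105 CPM in DMSO and 76.4 and 78 CPM in GDC0449 (log2 fold change -0.43, adjusted p = 1.23e-06). Of 9 tested genes listed under NADPH supply only Idh1, the cytosolic isocitrate dehydrogenase, was called. It was at 102 and 100 CPM in DMSO and at 223 and 222 CPM in GDC0449, a rise of 2.20-fold (adjusted p = 2.79e-21).

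Of 15 other genes often listed under NRF2, 2 rose and 1 fell, with a median of 0.34, the second highest of the 8 lists after dismutases, catalase and methionine sulfoxide reductases at 0.35. By adjusted p alone 9 were higher and 2 lower, where 18.1% of all genes were higher and 18.1% lower. This list too was chosen with earlier results of these data known. Aifm2, which encodes the ferroptosis suppressor FSP1, was at 3.87 and 3.23 CPM in DMSO and 5.93 and 6.68 CPM in GDC0449, and lost its call without either DMSO library (adjusted p = 0.0653 and 0.0978). Akr1b8, an aldo-keto reductase, stood on the threshold at 1.51-fold. It was not called without DMSO replicate 1, DMSO replicate 2 or GDC0449 replicate 2 (log2 fold changes 0.58, 0.59 and 0.51). Neither Aifm2 nor Akr1b8 was called with no filter or on log2(FPKM + 1). Abcc4, an export pump of conjugates and cyclic nucleotides, fell 1.75-fold, from 56.9 ± 3.42 to 32.5 ± 1.37 CPM (adjusted p = 7.82e-12).

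Of the 8 tested genes of haem and iron handling none was called. The smallest p belonged to Aco1, which as an apoprotein binds iron-responsive elements, at 95.6 and 93.5 CPM in DMSO and 124 and 126 CPM in GDC0449 (log2 fold change 0.40, adjusted p = 2.29e-06). Among 7 tested dismutases, catalase and methionine sulfoxide reductases, Cat was called, from 43.4 ± 1.14 to 67.4 ± 2.19 CPM, a rise of 1.55-fold (adjusted p = 1.49e-09). Catalase breaks down hydrogen peroxide in peroxisomes.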

How the data were processed

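By the series' design text, the authors trimmed adapters (Trim Galore), aligned to mm10 (HISAT2), counted reads (HTSeq 0.11.1) and tested with DESeq2 1.26.0 at the thresholds kept here. Neither the annotation nor the strand setting of the counting is given there. For each of the 4 libraries the authors deposited whole-number counts per gene, not normalized, and FPKM values; 546 genes with 0 counts have an FPKM of at least 1 in all 4, so the scales do not rest on the same assignment of reads. The 6 entries that name no gene, 27.7% to 29.8% of reads per library, were left out. Symbols and coordinates are from GENCODE M21 (GRCm38), which held 55480 of the 55573 identifiers.

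Counts were tested across all genes by edgeR 4.0.16 (R 4.3.3; default filter, TMM scaling, bias-adjusted quasi-likelihood test, group as the only term). Standard errors are the log2 fold change over the square root of F. CPM used TMM factors. Alternatives were other scalings, filters, thresholds and dispersions, DESeq2 1.42.0, limma 3.58.1 (voom, and log2(FPKM + 1)), a replicate block, and each library left out.

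The members and lists were chosen with earlier results of these data known. Named were all members, of each list up to 3 called genes with the smallest p or otherwise 1, Gli1 and 5 ATF4 genes. Others are marked, apart from cell type markers and genes without reads. Floors and intervals cover counting error or library spread only.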

Additional observations from a re-analysis of the deposited data

How the results depend on the processing

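Hmox1 was called lower and Nqo1 higher in all 14 refits, and no other member was called in any of them. By adjusted p alone 3 members were lower in the main fit, and this depended on the setting for Gsr and Txnrd1. The adjusted p of Gsr was 0.0599 in edgeR with upper-quartile scaling and 0.178 in edgeR with no filter. It was 0.084 in DESeq2 and 0.295 in limma on log2(FPKM + 1), where that of Txnrd1 was 0.0969. With a library left out, the log2 fold change of Gsr ran from -0.31 to -0.13. On the FPKM scale the groups of Gsr overlapped, at 16.5 and 18.5 in DMSO and 16.6 and 13.6 in GDC0449. Uncalled members changed sign: Keap1 without DMSO replicate 2 (-0.05; -0.05 to 0.20 with a library left out), and Gclm on log2(FPKM + 1) (-0.03) and without GDC0449 replicate 2 (-0.00083; -0.00083 to 0.12 with a library left out). Of the redox lists, 4 genes were higher with no filter, 5 on log2(FPKM + 1) and 4 to 8 with a library left out; by adjusted p alone 29 were higher and 18 lower. Over all genes, 746 were higher with no filter. With at least 5 CPM in 2 samples 799 were higher and 366 lower, on log2(FPKM + 1) 503 and 337, by adjusted p alone 2794 and 2793, and over 2-fold 648 and 312. With a library left out, 500 to 1221 were higher and 351 to 605 lower; 1 group then has 1 library, assumed to vary like the other group. The cause was not tested, beyond fewer genes entering the 5 CPM filter. The labels do not say that replicate numbers pair the libraries, and same-numbered libraries deviated from their group means with a correlation of 0.0351. With the replicate block 1407 genes were higher and 615 lower, and 1 member in each direction. Depth limits Srxn1, Nfe2l3, Ggt5 and Gstm7, each under 40 reads in every library.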

Other observations

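The ferritin subunits, which store the iron that haem oxygenase releases, differed in direction. The heavy chain Fth1 was at 380 and 362 CPM in DMSO and 264 and 300 CPM in GDC0449, with a log2 fold change of -0.40. The light chain Ftl1 was at 45.8 and 39.5 CPM in DMSO and 57.2 and 51.3 CPM in GDC0449, with a log2 fold change of 0.34. Both passed the adjusted p and neither passed 1.5-fold. Fth1 and Ftl1 were picked out after their values were seen. Ftl1 counts are uncertain: 34.6% of its exonic bases lie in other annotated genes, and on the authors' FPKM scale it stood at 414 and 404 in DMSO and 501 and 494 in GDC0449, above Fth1 at 258 and 246 in DMSO and 180 and 206 in GDC0449.

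Nnt, the mitochondrial transhydrogenase that makes NADPH, had 15 to 19 reads in each library, 0.764 to 1.18 CPM. The authors' FPKM for the same gene was 7.51 to 9.54. The annotation places a further gene of the same name over 47.4% of its exonic bases. The part of this overlap in the gap between the scales was not tested, and the level of Nnt is uncertain. Nnt was picked out after its values were seen.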
